A study of Homo sapiens with 4 samples.

Results

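The ETS factors of blood cells were examined here through the open chromatin in and around 8 of their genes: SPI1, SPIB, SPIC, ETS1, FLI1, ERG, ELF1 and ETV6. Every peak that overlapped one of these genes, or the 30 kb on either side of it, was taken. Overlapping peaks of different libraries were joined, which gave 72 regions of the 73729 in the whole series. SPI1 was chosen by its lower peak heights with PHF19 overexpression and the other genes by family, with earlier results of these data known, so the values with and without PHF19 overexpression are a description only.

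ETS factors bind DNA through a shared domain that recognises a GGAA core. SPI1, which encodes PU.1, directs myeloid and early B cell development and is normally silenced when B cells become plasma cells, and SPIB and SPIC are its closest relatives. SPIB acts in B cells and SPIC in certain macrophages. ETS1 and FLI1 lie next to each other on chromosome 11 and act in lymphocytes and in blood and vessel formation. ERG is active in blood stem cells and endothelium. ELF1 is broadly expressed in lymphoid cells, and ETV6 is a transcriptional repressor needed for blood formation in the bone marrow.

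Accessibility was measured by ATAC-seq, in which Tn5 transposase inserts adapters into open DNA, in AMO1, an established multiple myeloma cell line. Cells carried either an empty PCDH vector (labelled WT) or the vector with PHF19, a Polycomb-like protein that recruits the histone H3 methylating complex PRC2, and each of these was profiled a further time under a title beginning with IFN, a term left unexplained in the labels. This gave 4 groups of 1 library each: empty vector and PHF19 overexpression, called the first pair here, and their IFN-prefixed counterparts, the IFN-prefixed pair. Values for 4 libraries are given in the order empty vector, PHF19 overexpression, then the IFN-prefixed empty vector, then IFN PHF19 overexpression. With 1 library per group, no difference was tested against replicates. All 4 came from the same line, and the labels give no clone, number of cells or level of PHF19. The libraries held 27.4, 18.2, 65.9 and 16.4 M fragments (M, the prefix mega), and the header of the IFN empty vector library names a project folder of its own. The lowest called peaks had 10, 8, 16 and 8 fragments, or 0.365, 0.439, 0.243 and 0.489 per M. The depth gap cannot be told apart from the groups where a peak is missing. In comparisons that use the IFN empty vector library, its depth and project folder cannot be told apart from the group. The cell type label was checked against gene-end regions, which reach to within 1000 bp of a gene's first or last base. All 10 plasma cell markers had one in all 4 libraries, against 2 of 7 B cell, 1 of 8 myeloid, 1 of 5 T cell and 0 of 4 endothelial markers. Over all protein-coding genes the share was 60.0%. MS4A1, PAX5, CD14, LYZ, CSF1R, MPO and CDH5 had no such region in any library. Markers of other cell types that had one in all 4 were CIITA and CD79B (B cell), ITGAM (myeloid) and CD3E (T cell), the last at 12.5, 14.4, 12.1 and 13.5 fragments per M. The T cell genes CD3D, CD2 and CD247 had one in fewer libraries and CD3G in none. Their part in the results was not tested. The height of a region is its tallest summit in fragments per M. Log2 ratios of heights have the median ratio of every region called in the 2 libraries subtracted, and the 95% intervals are exact intervals for a ratio of 2 counts that cover counting error only.

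RefSeq promoter sequences on GRCh38.p14 were matched by symbol for 5 of the 8 members: SPIB, SPIC, ERG, ELF1 and ETV6. Sequences of 4 of the listed starts are shown because they separate starts with a peak from starts without one. Each is the 250 bases before the first transcribed base, 5′ to 3′ on the gene's own strand, with the ETS core GGAA or its reverse complement TTCC in capitals.

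ELF1: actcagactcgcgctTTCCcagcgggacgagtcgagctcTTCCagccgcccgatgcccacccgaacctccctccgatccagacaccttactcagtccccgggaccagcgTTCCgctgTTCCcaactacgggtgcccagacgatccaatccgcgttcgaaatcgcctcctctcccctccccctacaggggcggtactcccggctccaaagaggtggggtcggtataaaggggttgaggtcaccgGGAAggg
ETV6: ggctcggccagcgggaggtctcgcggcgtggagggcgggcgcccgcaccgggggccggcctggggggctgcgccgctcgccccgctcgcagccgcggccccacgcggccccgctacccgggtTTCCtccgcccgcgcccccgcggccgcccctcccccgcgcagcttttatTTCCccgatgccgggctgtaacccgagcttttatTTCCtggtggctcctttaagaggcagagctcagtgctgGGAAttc
SPIB: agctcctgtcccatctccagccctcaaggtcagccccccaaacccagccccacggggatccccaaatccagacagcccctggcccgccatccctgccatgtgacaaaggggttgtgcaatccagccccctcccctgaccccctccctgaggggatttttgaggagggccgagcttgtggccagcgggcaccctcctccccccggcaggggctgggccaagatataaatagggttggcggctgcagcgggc
ERG: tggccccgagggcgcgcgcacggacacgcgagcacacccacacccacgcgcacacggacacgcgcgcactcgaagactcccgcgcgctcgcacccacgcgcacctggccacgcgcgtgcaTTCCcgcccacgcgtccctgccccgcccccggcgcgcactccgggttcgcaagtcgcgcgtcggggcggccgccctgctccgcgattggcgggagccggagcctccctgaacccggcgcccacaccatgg

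The ELF1 sequence (chr13:41061387-41061636, minus strand) holds 5 GGAA cores over both strands, the ETV6 sequence (chr12:11649424-11649673, plus strand) 4, the SPIB sequence (chr19:50418688-50418937, plus strand) 0 and the ERG sequence (chr21:38660668-38660917, minus strand) 1. A core is found in 92.7% of 34943 promoters of this length, with a median of 3. None of the 4 holds the longer ETS motifs CCGGAAGT (3.39% of promoters) or GAGGAAGT (2.17%), which contain the core and were searched on both strands. The first transcribed bases of ELF1, ETV6 and SPIB lay inside a peak of every library. Those of ERG and SPIC lay in no peak of any library. Base composition did not sort the 4 shown in the same way. The ERG sequence had the highest GC content of the 4 at 77.2%, with 44 CpG dinucleotides, ETV6 had 74.4% with 32, SPIB 66.4% with 7 and ELF1 64.0% with 22. The SPIC sequence had 39.2% with 1 CpG, and the median over all promoters was 58.0% with 11 CpG. The other listed starts inside ERG and ELF1 also lay in no peak. Their GC content was 36.4, 46.4 and 44.8% for ERG and 33.2 and 34.4% for ELF1. Of the listed starts without a peak, only the ERG one shown was above the median GC content.

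The 8 windows differed in their number of regions and in length. ETV6 had 14 regions, ERG 13, FLI1 and ELF1 12 each, ETS1 10, SPI1 6, SPIB 4 and SPIC 1. Per 100 kb of window the order was another, with SPI1 highest at 7.17 regions, then FLI1 at 6.38, ELF1 6.33, SPIB 5.53, ETS1 5.3, ETV6 4.58, ERG 3.67 and SPIC 1.4. Of the 72 regions, 39 (54.2%) were called in all 4 libraries, against 48.5% of all regions of the series. ETV6 led with 10 regions in all 4 libraries, followed by ELF1 with 8, FLI1 with 6, ETS1 with 5, SPI1 and SPIB with 4 each and ERG with 2. ERG is the longest member at 294.5 kb and still had only those 2, with heights between 0.548 and 1.22 fragments per M. SPIC had no region in all 4, and its only one was a peak of the IFN empty vector library 3490 bp beyond its upper end, with 38 fragments or 0.577 per M. Neither SPIC nor ERG had a peak within 1000 bp of a gene end in any library, and FLI1 had none either. No FLI1 promoter was matched, so starts of FLI1 away from its gene ends were not placed.

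**Figure D1:**
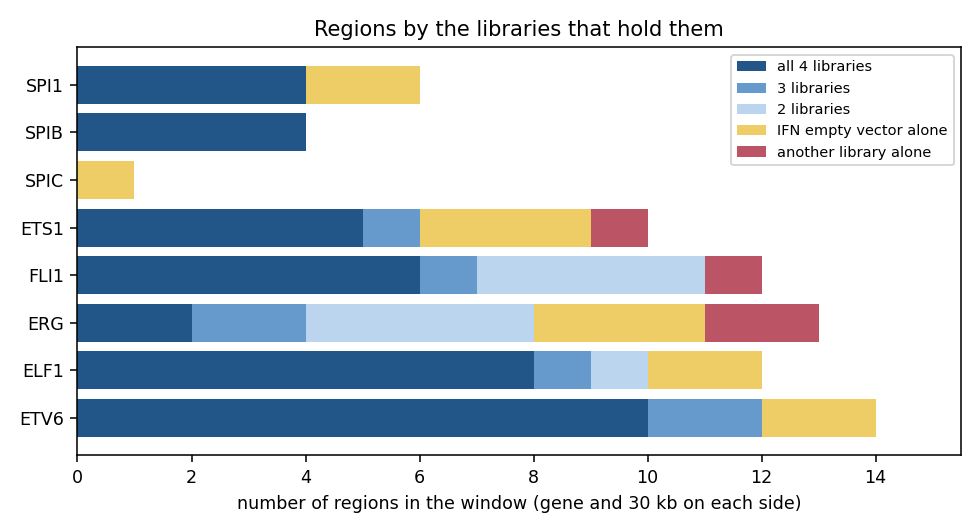
Number of regions in each window, split by the libraries that held a peak there. ETV6 had the most regions in all 4 libraries with 10, ERG had 2 of 13, and the single SPIC region was called in the IFN empty vector library alone.

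The IFN empty vector library, which had the most fragments, alone held 13 of the 72 regions (18.1% of them, against 21.6% over the series). At the depths of the other 3 libraries, 8 of the 13 would have had fewer fragments than the 10th percentile of the peaks called there. In 3 the expected number lay at or above that percentile in all 3 libraries and no peak was called. They lay 3130 bp inside ETV6 (100 fragments, 1.52 per M), 10604 bp inside the lower end of ETS1 (88 fragments, 1.34 per M) and 15012 bp beyond the upper end of SPI1 (52 fragments, 0.789 per M). Over the series 13.6% of regions held by that library alone were as tall as this. The empty vector library alone held none of the 72 regions (1.19% over the series), PHF19 overexpression alone 3 (1.41%) and IFN PHF19 overexpression alone 1 (2.08%). A single region, inside ERG 200427 bp from its lower end, was called in both PHF19 overexpression libraries and in neither empty vector library, with 9 and 14 fragments. Over the series 0.583% of regions had that pattern. The reverse, both empty vector libraries and neither PHF19 overexpression library, was found in 3 regions, 1 each inside FLI1, ERG and ELF1, against 8.64% over the series. The FLI1 region had 21 and 94 fragments, the ERG region 13 and 26 and the ELF1 region 30 and 84 in the empty vector and IFN empty vector libraries.

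The PU.1 subfamily came first in the comparison of PHF19 overexpression with empty vector, since it holds SPI1. SPI1 lies at 47354860 to 47378547 on chromosome 11 of hg38 and is transcribed toward lower coordinates, so its start is the upper end. Within 1000 bp of that start no peak was called in any library. The region on which SPI1 was picked lies at the far end of the gene, at 47354920 to 47355851, with its summit 548 bp inside the lower end. It had 93 fragments or 3.4 per M in the empty vector library, 19 or 1.04 with PHF19 overexpression, 200 or 3.03 in the IFN empty vector library and 20 or 1.22 with IFN PHF19 overexpression. Both PHF19 overexpression libraries were lower than both empty vector libraries, an order that the choice of SPI1 favoured. The share of all regions with this order was not counted. The log2 ratio was -1.59 (95% interval -2.39 to -0.87) in the first pair and -1.48 (-2.22 to -0.81) in the IFN-prefixed pair, folds of 3.02 and 2.79. The peak was also narrower with PHF19 overexpression, 470 and 443 bp wide against 867 and 932 bp. Of the 35731 regions in all 4 libraries, 155 were at or below this ratio in the first pair and 294 in the IFN-prefixed pair, the SPI1 region included. Since SPI1 was picked for this fall, its rank is a description and no support for it.

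The other regions of the SPI1 window did not share that drop evenly. Inside the gene, 4472 bp from its start, a region at 47373689 to 47374685 had 2.19, 2.63, 2.06 and 2.44 fragments per M. Its log2 ratios with PHF19 overexpression were 0.38 (-0.2 to 0.95) and 0.08 (-0.47 to 0.59), so the region nearest the start was not lower. Upstream of the start, 21884 bp beyond it, a region over the microRNA gene MIR4487 and inside SLC39A13-AS1 (47399842 to 47401182) had 2.7, 1.21, 2.08 and 1.65 per M in the same order. Its ratios were -1.05 (-1.81 to -0.35) and -0.5 (-1.15 to 0.1), and its tallest summits lay up to 414 bp apart between libraries. The tallest region of the window, 47407664 to 47408984, covers a start of SLC39A13, a zinc transporter gene, and had 16.4, 14.5, 12.0 and 13.6 per M. Its ratios were -0.07 (-0.3 to 0.15) and 0.01 (-0.21 to 0.23). Just outside the window, 47.2 kb above SPI1, a region at 47425767 to 47427002 had ratios of -0.07 and 0.0. The nearest region on the other side, 47271908 to 47272451, lies 82.4 kb below SPI1. It had 2.67 per M in the empty vector and 3.0 in the IFN empty vector library. No peak was called there in either PHF19 overexpression library, so it has no ratio and does not enter the local median with PHF19 overexpression. Removal of the median of the surrounding 2.5 Mb left the far-end region at -1.64 and -1.49.

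SPIB, on chromosome 19 at 50418938 to 50431314, held the lowest ratio of all members. A region at 50414819 to 50416036 lies inside POLD1, the catalytic subunit gene of DNA polymerase delta, with its summit 3716 bp before the start of SPIB. It had 130 fragments or 4.75 per M in the empty vector library, 16 or 0.878 with PHF19 overexpression, 228 or 3.46 in the IFN empty vector library and 33 or 2.02 with IFN PHF19 overexpression. Both PHF19 overexpression libraries again stood below both empty vector libraries, an order whose share over the series was not counted. The ratio was -2.32 (-3.17 to -1.57) in the first pair and -0.95 (-1.52 to -0.42) in the IFN-prefixed pair. The difference between these was 1.38 (0.46 to 2.29, by a normal approximation on log counts), an interval that excluded 0. It was the largest such difference among the member regions in all 4 libraries. Duplicates were kept, so the interval may be too narrow, and the difference was not tested. The peak spanned 1120 and 1218 bp with 2 summits in the empty vector libraries and 379 and 703 bp with 1 summit in the PHF19 overexpression libraries. At the start of SPIB, a region at 50418874 to 50419921 had 1.97, 1.32, 1.97 and 1.65 per M, with ratios of -0.47 (-1.23 to 0.25) and -0.43 (-1.08 to 0.18). With summits matched within 250 bp of the tallest empty vector summit, at 50419155, these became -0.74 and -1.01. The second value does not compare the nearest summits. It sets 130 fragments at 50419392 in the IFN empty vector library against 18 at 50419010 with IFN PHF19 overexpression. The latter library had another summit, with 27 fragments at 50419428, which gives the -0.43. Just beyond the other end, with its summit 550 bp past SPIB, the tallest region of the window (50431356 to 50433060) reached into MYBPC2 and had 6.39, 7.02, 5.25 and 8.06 per M. It was higher with PHF19 overexpression, by 0.25 (-0.09 to 0.58) and 0.45 (0.15 to 0.74). The fourth region, inside MYBPC2, a myosin-binding protein gene, had -0.48 (-0.98 to 0.0) and -0.42 (-0.87 to 0.0). SPIC had no region with a value.

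**Figure D2:**
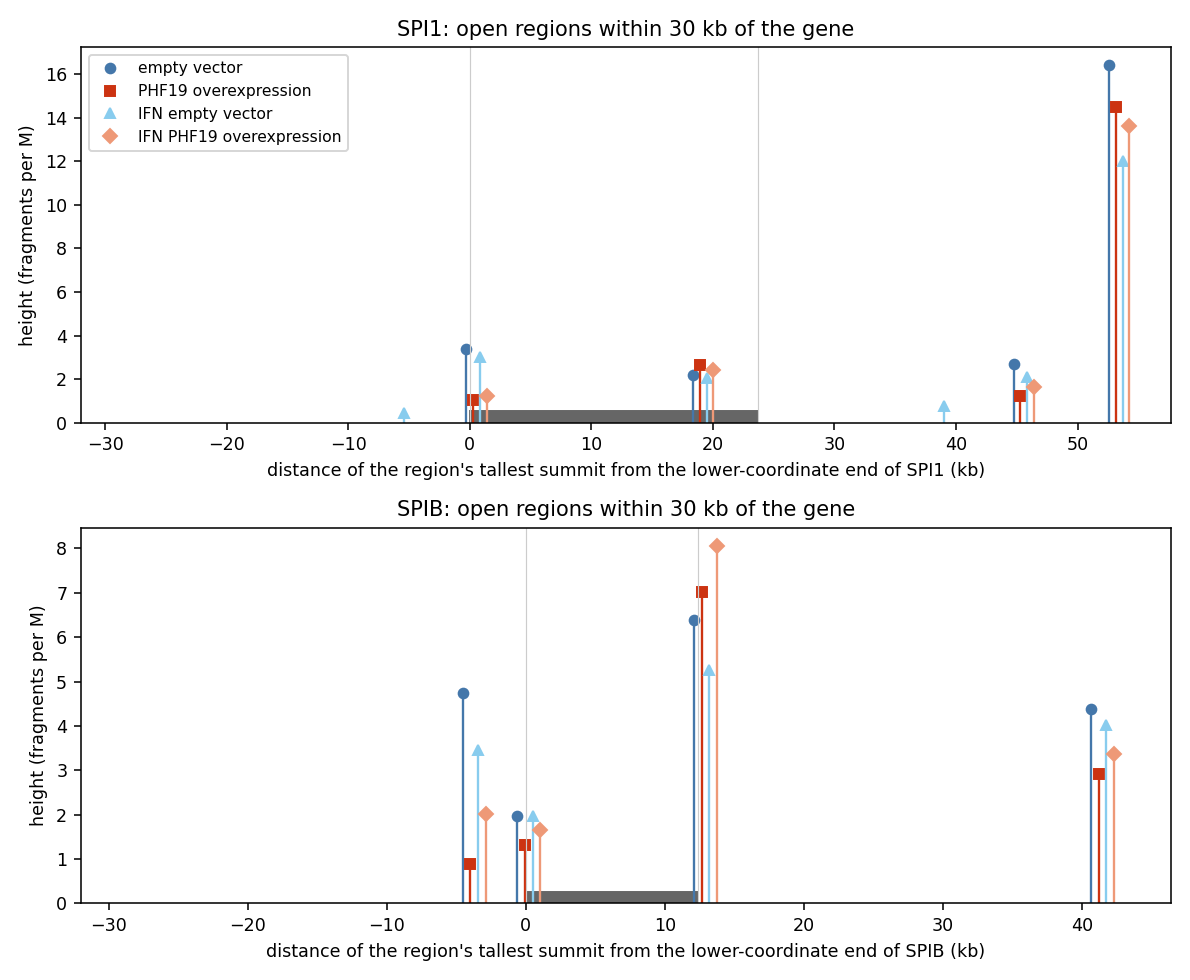
Height in fragments per M (vertical) of each region of the SPI1 and SPIB windows against the distance of its tallest summit from the lower-coordinate end of the gene in kb, with 1 marker for each library that called it, set side by side around that distance, and the gene body as a grey bar. At the far end of SPI1 the PHF19 overexpression libraries stand at 1.04 and 1.22 against 3.4 and 3.03 for the empty vector libraries, and before SPIB at 0.878 and 2.02 against 4.75 and 3.46.

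Across the 8 regions of SPI1 and SPIB the median ratio was -0.48 in the first pair, with 6 below 0, and -0.42 in the IFN-prefixed pair, with 5 below 0. Over the 34 and 39 regions of the other members with a value it was 0.08 and -0.04. SPI1 belongs to the first set because of this comparison, so the contrast between the sets is in part fixed by the choice of members. SPIB alone had medians of -0.48 and -0.42 over its 4 regions.

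By tallest summits, ELF1 was the member with the most even shift. It lies on chromosome 13 at 40931919 to 41061386 on the minus strand. All 8 of its regions in all 4 libraries had ratios at or below 0 in the first pair, from -0.36 to 0.0, with a median of -0.29. All 9 with a value were below 0 in the IFN-prefixed pair, from -0.66 to -0.04, with a median of -0.32. Over the series 19181 of 38367 and 21531 of 43106 regions were below 0. In the first pair only the start region had an interval that excluded 0. Regions of 1 gene share a locus and libraries, so they are not replicates. Its start region, shared with the divergent gene WBP4 (41059901 to 41062091), had 332 fragments or 12.1 per M in the empty vector library, 159 or 8.72 with PHF19 overexpression, 660 or 10.0 in the IFN empty vector library and 148 or 9.04 with IFN PHF19 overexpression. This promoter, whose 5 GGAA cores are shown above, was lower in both pairs, at -0.36 (-0.65 to -0.09) and -0.32 (-0.58 to -0.06). Regions inside ELF1 were between 0.759 and 3.25 per M tall where called in all 4 libraries, and a region 42968 bp inside the lower end had the lowest value of the IFN-prefixed pair, -0.66 (-1.35 to -0.03), against -0.1 (-0.75 to 0.52) in the first. The medians were -0.2 in both pairs with the local median removed, which put 2 of 8 and 2 of 9 regions above 0, and -0.4 and -0.15 without centring. By tallest summits, each of the shifts is below 1.5-fold except that one. The region at 40992801 to 40995539 had its tallest summits up to 1456 bp apart between libraries. With summits matched within 250 bp, its first-pair ratio went from -0.3 to -0.86 (50 against 17 fragments), beyond 1.5-fold.

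ETS1 and FLI1, neighbours on chromosome 11, lay mostly above 0 in the first pair, in a stretch that was itself raised. The local median at the tallest ETS1 region was 0.38 in the first pair and 0.32 in the IFN-prefixed pair. ETS1 (128458765 to 128587558) had medians of 0.27 and 0.29 over 6 and 5 regions, which became -0.12 and -0.03 with the local median removed. Its tallest region, 128521677 to 128523031, lies in the middle of the gene over MIR6090 and had 10.5, 12.0, 8.56 and 11.7 per M. Its ratios of 0.31 (0.04 to 0.57) and 0.29 (0.04 to 0.53) became -0.07 and -0.03 with the local median removed. ETS1 is transcribed toward lower coordinates, and near its upper end a peak was called in the IFN empty vector library alone, with 24 fragments. No ETS1 promoter was matched, so starts inside the gene were not placed. Whether the tallest region covers one was not read. The gene's most raised regions were low peaks. Inside the gene, 128559291 to 128560020 had 11, 14, 25 and 17 fragments in the order given, and ratios of 1.05 (-0.2 to 2.33) and 1.28 (0.3 to 2.23). Beyond the upper end, 128603805 to 128604479 had 16, 29, 57 and 26 fragments and ratios of 1.56 (0.63 to 2.53) and 0.71 (-0.02 to 1.4). These stayed above 0 with the local median removed, at 0.66 and 0.97 inside the gene and 1.17 and 0.4 beyond it. Tallest summits of both lay more than 250 bp apart in some libraries.

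FLI1 (128685132 to 128813267) had medians of 0.16 over 7 regions and 0.17 over 8, and -0.28 and -0.14 with the local median removed. Its broadest region, 128692673 to 128695672, overlaps SENCR, a long non-coding RNA gene within FLI1, and had 5.15, 5.27, 4.1 and 7.21 per M. Whether this region covers a FLI1 start was not read, since no FLI1 promoter was matched. The ratio of this region was 0.14 (-0.25 to 0.53) in the first pair and 0.65 (0.32 to 0.96) in the IFN-prefixed pair, or -0.28 and 0.34 with the local median removed. A region 72757 bp inside the lower end (128757199 to 128758469) had 5.74, 2.8, 5.02 and 5.01 per M, so that the PHF19 overexpression library stood apart from the other 3. Its ratios were -0.92 (-1.41 to -0.46) and -0.17 (-0.54 to 0.18), a difference of 0.75 (0.18 to 1.33). Its tallest summits lay up to 395 bp apart, although the empty vector library had another summit of 155 fragments, 5.66 per M, at 128757624, near those of the other libraries at 128757494, 128757590 and 128757569. Beyond the upper end, 128830364 to 128832223 was higher in both pairs, at 0.7 (0.17 to 1.23) and 0.37 (-0.1 to 0.83), or 0.22 and 0.07 with the local median removed.

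ERG, on chromosome 21 at 38367261 to 38661783, had few values, all on low peaks. Its medians were 0.55 over 2 regions and 0.37 over 6. The region with the same sign in both pairs, 38505378 to 38506906, had 24, 21, 54 and 20 fragments, and ratios of 0.5 (-0.41 to 1.41) and 0.41 (-0.41 to 1.17) that include 0. Its tallest region, 38355763 to 38356747 below the gene, had no peak in the empty vector library and 1.76, 1.37 and 1.83 per M in the others.

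ETV6, on chromosome 12 at 11649674 to 11895377, had the most regions called in every library and ratios near 0. Its start region (11648711 to 11651351), over the promoter shown above, had 4.46, 4.61, 3.58 and 4.7 per M, and ratios of 0.16 (-0.26 to 0.57) and 0.23 (-0.17 to 0.6), or -0.13 and 0.0 with the local median removed. The tallest, 11812220 to 11813590, had 5.48, 6.8, 5.36 and 7.33 per M and ratios of 0.42 (0.07 to 0.78) and 0.28 (-0.03 to 0.59), or 0.13 and 0.06 with the local median removed. A region 109167 bp inside the gene (11757759 to 11759378) was at 0.72 (0.18 to 1.26) and 0.36 (-0.15 to 0.86), or 0.44 and 0.14 with the local median removed. Over 11 regions the medians were 0.02 and 0.1, and -0.27 and -0.12 with the local median removed. The medians and the start region thus changed sign with the local reference in the first pair, while the tallest region and the one 109167 bp inside the gene stayed above 0 in both pairs.

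Over all members with a peak in both libraries, 4 of 42 regions were lower by 1.5-fold or more in the first pair (9.52%, where 9.16% of all regions were) and 6 were higher (14.3%, against 12.8%). In the IFN-prefixed pair 3 of 47 were lower (6.38%, against 11.0%) and 5 higher (10.6%, against 11.8%). The median ratios were 0.0 and -0.04. These shares lay near or below those of the series, so they are no result about the members. Regions lower by 1.5-fold or more in both pairs were the SPI1 far end and the one before SPIB, 2 of 39 where 5.37% of all regions in all 4 libraries were. Regions higher by as much in both were the 2 low ETS1 peaks (4.15% over the series). The pairs share no library, but the IFN-prefixed pair sets libraries of different project folders and depths against each other. In 31 of the 39 regions the ratios had the same sign, against 69.7% over the series, with 19 below 0 and 12 above in both. As a description, Pearson's r between the pairs was 0.79 and Spearman's rho 0.74 over the 39 regions, and 0.69 and 0.61 over 31 without SPI1 and SPIB. Over all 35731 regions r was 0.63 and rho 0.57. Regions of 1 gene share a locus and all ratios come from the same 4 libraries, so these are not independent points.

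**Figure D3:**
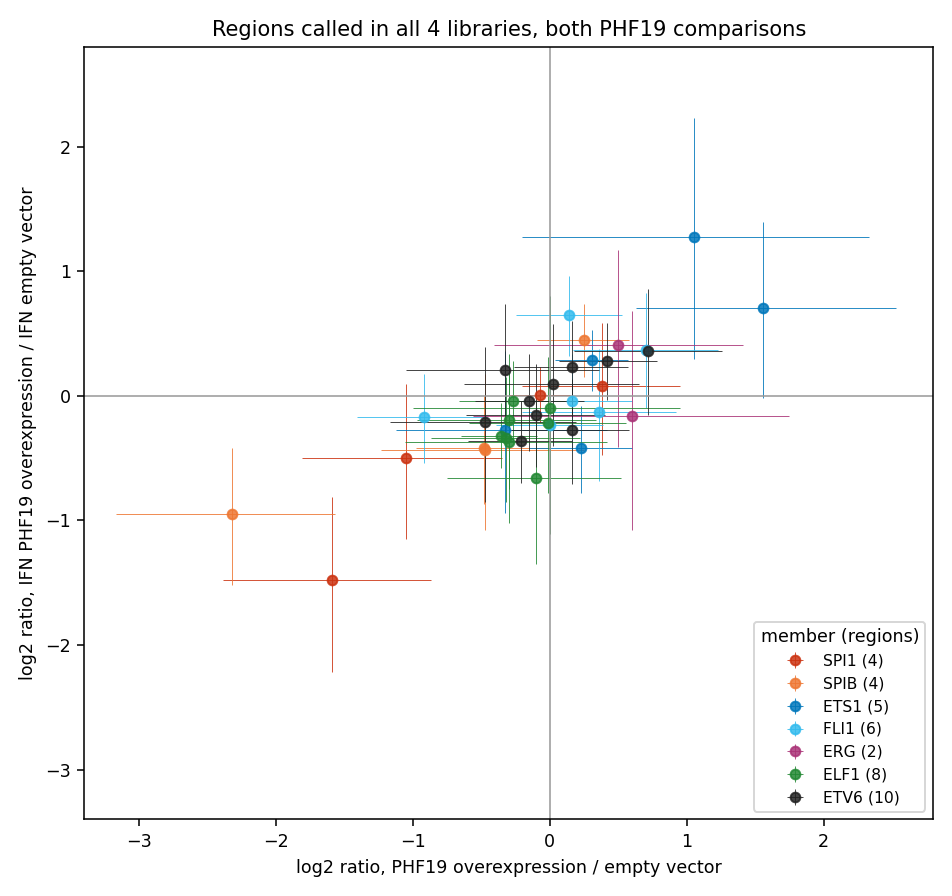
Log2 ratio of heights with PHF19 overexpression in the first pair (horizontal) and the IFN-prefixed pair (vertical) for the 39 regions called in all 4 libraries, with 95% counting intervals as bars and 1 colour per member. The SPI1 far end at -1.59 and -1.48 and the region before SPIB at -2.32 and -0.95 stand at the lower left, and 2 low ETS1 peaks with wide intervals at the upper right.

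The prefix comparisons, which did not enter the choice of SPI1, moved the members little. In the IFN empty vector against the empty vector library 0 of 46 regions were lower by 1.5-fold or more (1.81% over the series) and 4 were higher (8.7%, against 6.22%), with a median of -0.02. In the IFN PHF19 overexpression against the PHF19 overexpression library 0 of 43 were lower (3.64%) and 3 higher (6.98%, against 6.65%), again with a median of -0.02. The SPI1 far-end region was at -0.08 (-0.44 to 0.29) with the empty vector and 0.11 (-0.87 to 1.1) with PHF19 overexpression. The region inside SPI1 had 0.0 (-0.45 to 0.46) and -0.22 (-0.87 to 0.41), and the one over MIR4487 -0.29 (-0.71 to 0.13) and 0.33 (-0.53 to 1.22). The region before SPIB was at -0.37 (-0.69 to -0.05) with the empty vector and 1.08 (0.18 to 2.04) with PHF19 overexpression, and the FLI1 region 72757 bp inside the gene at -0.11 (-0.38 to 0.18) and 0.72 (0.2 to 1.26). Both of the latter stood higher in the IFN PHF19 overexpression library than in the PHF19 overexpression library. The ELF1 start had -0.19 (-0.38 to 0.0) and -0.06 (-0.4 to 0.27) and the ETV6 start -0.23 (-0.55 to 0.1) and -0.09 (-0.55 to 0.38). Every comparison shares libraries with 2 of the others, so their values are set side by side only.

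**Figure D4:**
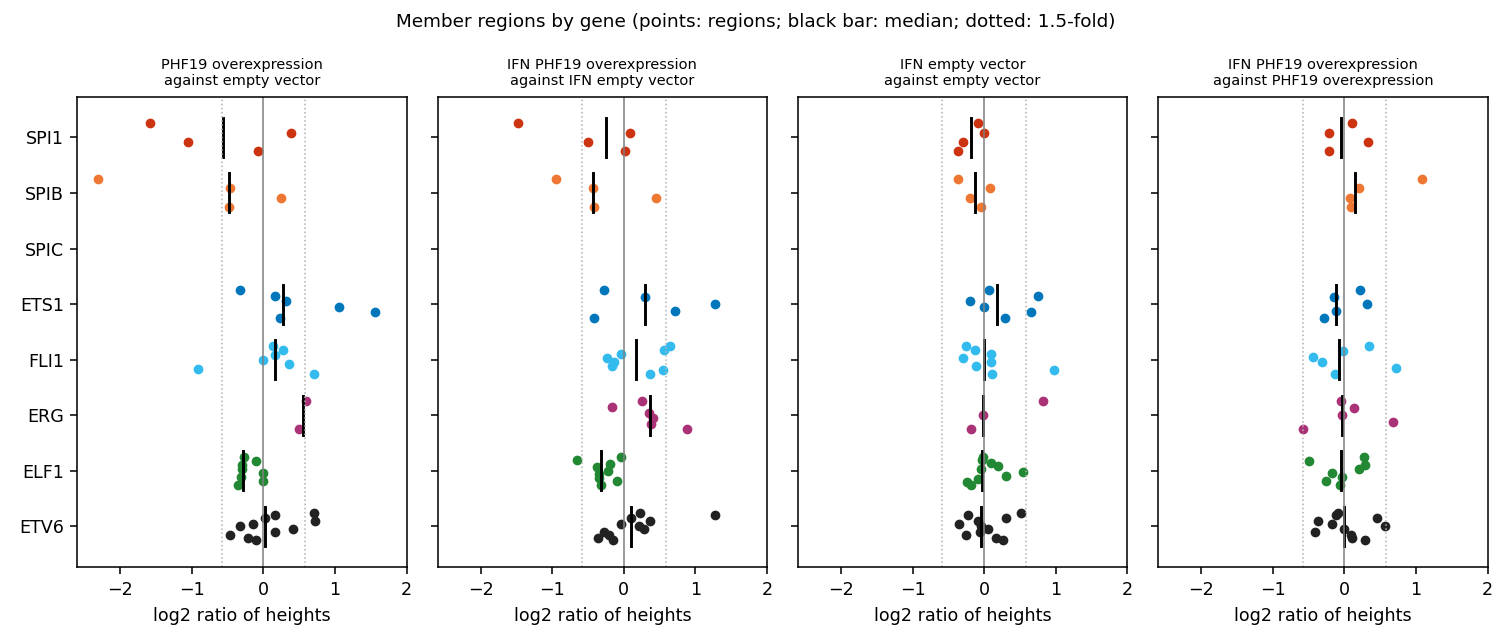
Log2 ratio of heights (horizontal) of each region by member gene in the 4 comparisons, with the median as a black bar and 1.5-fold as dotted lines. SPI1 and SPIB have regions beyond -1.5 in the first panel, ELF1 is at or below 0 in both PHF19 panels, and the medians of the prefix panels lie between -0.19 and 0.18.

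The rest of the ETS family was read at gene ends. Of 20 other ETS genes, 14 had a gene-end region in all 4 libraries, and ETS2, ETV3L, EHF, ETV1, ETV7 and SPDEF had none in any library. In the first pair 1 of the 14 was lower by 1.5-fold or more (2.42% of 10119 gene-end regions were) and 2 were higher (4.84%), with a median of -0.05 against -0.06 over all gene-end regions. In the IFN-prefixed pair 1 was lower (2.58%) and 0 higher (4.52%), with a median of -0.04 against 0.01. None passed in both pairs in either direction, where 1.2% and 2.22% of gene-end regions did. Between the IFN empty vector and empty vector libraries 0 of 14 were lower (1.12% of gene-end regions) and 0 higher (0.623%), and between the PHF19 overexpression libraries 0 were lower (1.46%) and 0 higher (0.998%). ELF3, an epithelial ETS factor, came closest on the lower side, with 15.3 and 9.77 per M in the first pair, 13.2 and 8.85 in the IFN-prefixed pair, and ratios of -0.54 (-0.8 to -0.28) and -0.74 (-1.01 to -0.49). ETV5, of the PEA3 group, had -0.26 (-0.45 to -0.08) and -0.25 (-0.44 to -0.07), and GABPA, which drives many housekeeping promoters, -0.24 (-0.47 to -0.01) and -0.21 (-0.44 to 0.01). ELK3, of the ternary complex group, was at -0.67 (-1.08 to -0.26) in the first pair and -0.09 (-0.43 to 0.25) in the IFN-prefixed pair. On the higher side ELF4, a relative of ELF1, had 0.48 (-0.14 to 1.1) and 0.46 (-0.1 to 0.99), FEV, an ETS factor of serotonin neurons, 0.81 (0.53 to 1.09) and 0.33 (0.06 to 0.58), ETV3, a repressor, 0.16 (-0.06 to 0.38) and 0.53 (0.33 to 0.73), and the epithelial ELF5 0.77 (0.11 to 1.42) and 0.14 (-0.43 to 0.67).

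**Figure D5:**
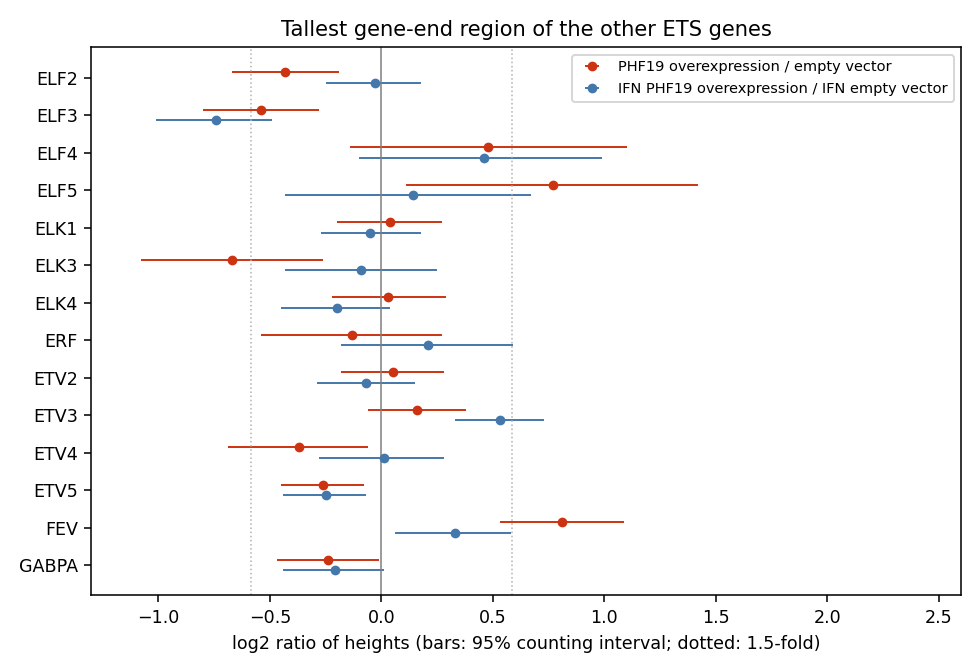
Log2 ratio of heights with PHF19 overexpression at the tallest gene-end region of 14 other ETS genes, in the first pair and the IFN-prefixed pair, with 95% counting intervals. ELF3 lies at -0.54 and -0.74 and FEV at 0.81 and 0.33, and no gene passes 1.5-fold in both pairs.

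Partners of PU.1 and genes known to depend on it were read in the same way. Of 17, 6 had a gene-end region in all 4 libraries: IRF4, RUNX1, CEBPB, ITGAM, BTK and CD79B. CSF1R, CSF3R, CD14, CYBB and FCGR1A, which PU.1 activates in myeloid cells, were among the 10 with none. IRF4, which binds composite sites with PU.1 in B cells and is also a plasma cell marker, had 18.9, 10.6, 13.2 and 12.0 per M and ratios of -0.72 (-0.97 to -0.48) and -0.31 (-0.54 to -0.08). RUNX1, a regulator of SPI1 in blood stem cells, had -0.44 (-0.7 to -0.17) and -0.48 (-0.73 to -0.24). BTK, a B cell receptor kinase, had -0.23 (-0.59 to 0.13) and -0.16 (-0.52 to 0.18), and ITGAM, a myeloid integrin, 0.7 (0.04 to 1.36) and 0.19 (-0.32 to 0.67). CEBPB had 0.19 (-0.1 to 0.47) in both pairs, and CD79B 0.41 (0.06 to 0.76) and -0.07 (-0.43 to 0.28). The medians over the 6 were -0.02 and -0.12, against -0.06 and 0.01 over all gene-end regions. In the first pair 1 of 6 was lower by 1.5-fold or more (2.42% of gene-end regions) and 1 higher (4.84%), and in the IFN-prefixed pair 0 were lower (2.58%) and 0 higher (4.52%). ITGAM was also higher in the IFN empty vector than in the empty vector library, by 0.67 (0.16 to 1.21).

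Genes with the most similar pattern to the SPI1 far-end region were sought among 11991 genes with a gene-end region in all 4 libraries, by the Euclidean distance of the log2 heights, centred by library and by region. The nearest were KIF3B, a kinesin (0.0788), IL23A, a cytokine subunit (0.127), FER, a tyrosine kinase (0.146), F2R, the thrombin receptor (0.172), and PVRIG, an inhibitory receptor of lymphocytes (0.261), where the median over all genes was 1.52. With 4 libraries such a match says little beyond the ratios themselves. KIF3B had 7.53, 2.19, 6.46 and 2.75 per M and IL23A 6.25, 2.14, 5.86 and 2.26.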

How the data were processed

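The 4 deposited peak lists, 1 per library, were analysed. The authors called peaks with MACS 2.1.2 on paired fragments without a control at a q of 0.01, keeping duplicates and several summits per peak, per the file headers. Build hg38, bcl2fastq 2.17, Trimmomatic 0.38 and DiffBind are named in the submitters' processing notes. The aligner is not given in the sources used here. In each list the deposited pileup is the signal at a summit in whole, unscaled fragments. The deposited -log10 p-values and q-values and the fold enrichment, a ratio to local background, are per peak, and only the q-value was used, in an alternative. Summits were collapsed to the tallest per peak, and peaks on chromosomes 1 to 22 and X that overlapped by 1 bp were merged. Heights were divided by the fragments per library. Each group holds 1 library and no test was run. A fit over both pairs, with the prefix as a term, was not made. Intervals of a ratio are exact (Clopper-Pearson), those of a difference between pairs use a normal approximation on log counts, and both cover counting error only. Duplicates were kept, so fragments may not be independent molecules. Median log2 ratios of -0.11, 0.17, -0.09 and 0.11 were subtracted in the 2 PHF19 and the 2 prefix comparisons. Gene positions and promoters came from RefSeq tables of GRCh38.p14, the build of the files, for 19974 protein-coding genes. For each member the start or gene-end region, the tallest region and the one with the largest smaller ratio of both PHF19 comparisons were given in full, and other regions were picked after their values were seen. Other ETS genes were named by that smaller ratio, up to 4 per direction, and 5 genes most like SPI1 were named. The members, gene lists and tests were chosen with earlier results of these data known. Merging and intervals were tested on simulated data with Python 3.11.15 and scipy 1.17.1.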

Additional observations from a re-analysis of the deposited data

Results flagged for a closer look

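Among the 39 regions called in all 4 libraries, 7 had opposite directions in the 2 PHF19 comparisons with ratios rounded to 2 decimals. The FLI1 region at 128724896 to 128726542 is not among them, because its first-pair ratio rounds to 0.0, against -0.23 in the IFN-prefixed pair. In 1 of the 7 a ratio had a counting interval that excluded 0. It is the region beyond the upper end of ETS1 at 128610424 to 128611760, which had 5.37 and 5.82 fragments per M in the first pair, without and with PHF19 overexpression, and 6.19 and 5.19 in the IFN-prefixed pair. Its log2 ratio was 0.23 (-0.15 to 0.6) in the first pair and -0.42 (-0.78 to -0.08) in the IFN-prefixed pair, a difference of -0.65. With the local median removed both were negative, at -0.16 and -0.73. The difference was not tested against replicates, since each group holds 1 library.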

How the results depend on the processing

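Medians over the member regions stayed within the spread used as a tolerance, the 95% order-statistic interval over regions, under all alternatives run but 1: without centring, the IFN empty vector against empty vector median was -0.11 in place of -0.02. The number of member regions in every library stayed within 1.5 times the 39 reported. Of 184 values of 8 named regions under other scalings, summit choices and q limits, 183 stayed within their counting interval and 1 did not, the ETV6 start in the IFN empty vector against empty vector comparison, at 0.12 with the mean of all summits. A further 8 could not be given. At a -log10 q of 5 or more the region before SPIB had no peak in the PHF19 overexpression library, which leaves the ratio of -2.32 and 1 other without a value. With summits matched within 250 bp, 6 had none, all 4 of the FLI1 region 72757 bp inside the gene and 2 of the ETV6 start. Of 72 counts past 1.5-fold, 21 changed by more than 1.5 times. In the first pair the 6 higher regions became 3 with the local median removed, 3 with summits matched within 250 bp (chosen after seeing the data), 3 within 5 kb of the genes and 2 with at least 1 fragment per M in both libraries, and the 4 lower ones became 7 with the local median removed. In the IFN-prefixed pair the 5 higher ones became 8 without centring, 3 with the local median removed or within 5 kb, and 1 with that minimum, and the 3 lower ones 6 with the mean of all summits. In the IFN empty vector against empty vector comparison the 4 higher ones became 0 with that minimum, and 1 region was lower with the mean of all summits. Between the PHF19 overexpression libraries the 3 higher ones became 1 with that minimum or at a -log10 q of 5 or more, and the 0 lower ones became 3 with the mean of all summits and 1 with scaling to regions in all 4 libraries. A fold of 2 left 2 higher in the first pair, 1 lower and 2 higher in the IFN-prefixed pair, and 0 and 1 higher in the prefix comparisons. The cause was not tested. No fit with a replicate block was made, because each group holds 1 library and the labels number no replicates. The ratios of both PHF19 pairs are given side by side instead. Few fragments limit several ratios, with 19 and 20 at the SPI1 far end and 16 and 33 before SPIB in the PHF19 overexpression libraries, and 8 in the lowest ERG peak used.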
